A study of Mus musculus with 6 samples.

Results

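Ighm and 7 further genes of the B lymphoid lineage (Ighd, Cd79a, Cd79b, Ms4a1, Ebf1, Pax5 and Jchain) were followed in RNA-seq libraries of mast cells from fetal mouse skin. They were taken by symbol from the count tables, and each of the 8 had 1 row among 55809 gene rows. The 8 were selected on measured values: the log2 difference of Ighm between control and prenatal stress was already known when they were listed. Therefore the values of the 8 in that comparison are a description and carry no test. The question was whether Ighm differed together with other B cell genes or apart from them.

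The mice carried the genotype label C57BL6J and were collected at embryonic day 18.5, with both sexes used. Dams mated at 8 to 10 weeks of age were, for the prenatal stress group, held in clear perforated tubes under a bright lamp for 30 minutes, 3 times a day, starting at embryonic day 13.5 by the design text or 13 by the protocol and ending at 18.5 or 18. Control dams were not disturbed. All groups went through the same skin digestion and flow sort for cells positive for CD45, CD117 (the stem cell factor receptor KIT) and ST2 (the interleukin 33 receptor) and negative for the macrophage markers F4/80 and CD64. No B cell marker was part of the sort. Each group had 3 libraries, each from a pool of 4 mice, and the labels do not give the litters behind a pool, so a p-value here speaks of variation among pools.

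The libraries held 51710555 to 74735139 counts assigned to genes. At that depth 3 counts, the floor used here, stood for 0.0391 to 0.0595 CPM (counts scaled to library size with TMM factors, which align the libraries on the bulk of their genes). The labelled cell type was borne out by its markers: 11 mast cell genes, among them Kit, Cpa3 and Il1rl1, summed to 58819 to 71070 CPM in controls and 85163 to 102589 CPM in stress libraries. Macrophage genes were also present, with 14 of them summing to 6799 to 7711 CPM in controls and to 5582, 5207 and 7841 CPM in stress replicates 1, 2 and 3.

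Ighm encodes the constant part of the IgM heavy chain. In a B cell it is joined by splicing to a rearranged V, D and J exon, and the heavy chain pairs with a light chain and is held at the surface with CD79A and CD79B, the signalling chains of the B cell receptor. Transcripts that start upstream of the constant exons and hold no V segment are also known from cells that have not rearranged the locus. EBF1 and PAX5 are transcription factors that establish and keep B cell identity, MS4A1 (CD20) is a surface protein of B cells, and the J chain links antibody units in secreted IgM and IgA.

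The 4 heavy chain J segments and the start of Ighm are shown because they are the pieces that a rearranged transcript brings together. They are taken from GENCODE M21 transcripts (build GRCm38, all on the minus strand), and capitals mark TGGGGNNNNGG, which encodes the conserved tryptophan-glycine motif of J segments. All 4 J entries held these letters, on the transcript strand and not on the other strand. The same letters were in the first 54 bases, on either strand, of 1.71% of 141647 transcripts of at least that length. In this annotation Ighm spans chr12:113418558-113422730, Ighj4 chr12:113428514-113428567 and Ighj1 chr12:113429781-113429833. For Ighj2, which has more than one annotated transcript, the one with the motif is given.
Ighj1: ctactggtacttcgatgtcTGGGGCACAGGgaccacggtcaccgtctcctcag
Ighj2: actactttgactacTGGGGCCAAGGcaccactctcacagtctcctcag
Ighj3: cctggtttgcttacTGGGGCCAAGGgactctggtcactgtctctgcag
Ighj4: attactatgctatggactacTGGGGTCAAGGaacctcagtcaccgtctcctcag
Ighm, first 60 bases: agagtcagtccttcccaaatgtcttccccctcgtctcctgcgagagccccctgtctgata

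Ighm had 2438, 2234 and 1934 counts in control replicates 1, 2 and 3, and 933, 848 and 1057 counts in stress replicates 1, 2 and 3. Scaled to library size, these were 31.8, 38.0 and 34.1 CPM in controls and 18.5, 15.7 and 19.0 CPM in stress libraries. All 3 stress libraries lay below all 3 controls, with a wide gap and little spread inside each group. The means were 34.6 ± 3.16 CPM and 17.8 ± 1.76 CPM (SD, n = 3 pools per group), a log2 difference of -0.96 (SE 0.09). No stretch of 75 bases of Ighm occurred in transcripts of another gene, and its exons overlapped no other gene. Counts were made per gene, so the membrane and secreted forms of the heavy chain were not told apart. In bulk libraries, fewer cells that hold a transcript and less of it per cell cannot be told apart.

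**Figure D1:**
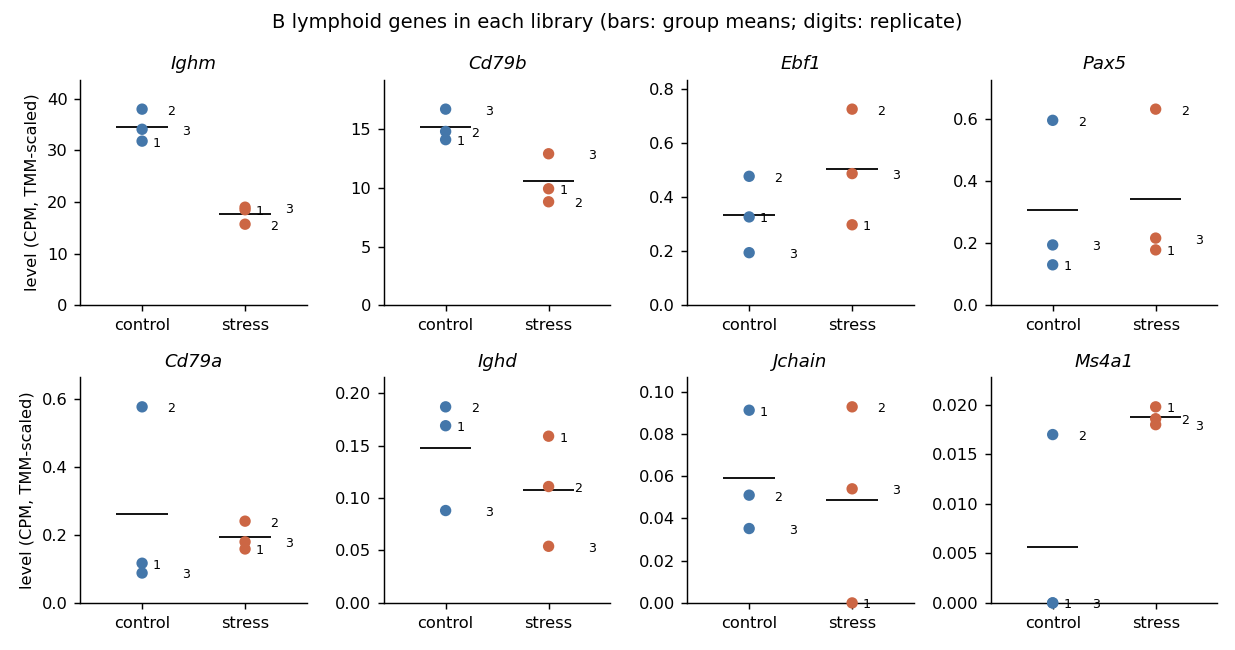
Level of each of the 8 B lymphoid genes in CPM (vertical axis, own scale per panel, starting at 0) in the 3 control and 3 prenatal stress libraries, each point 1 library with its replicate number and each bar a group mean. Ighm lay at 31.8 to 38.0 CPM in controls and 15.7 to 19.0 CPM under stress, Cd79b showed a smaller gap, and the points of the other 6 genes lay under 1 CPM.

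Cd79b was the other gene of the 8 with many counts. It had 1080, 872 and 948 counts in controls and 500, 475 and 716 in stress libraries. Its levels were 14.1, 14.8 and 16.7 CPM in controls and 9.92, 8.81 and 12.9 CPM in stress libraries. The groups again did not overlap, with stress replicate 3 nearest to the controls. The log2 difference was -0.53 (SE 0.14), from 15.2 ± 1.35 to 10.5 ± 2.1 CPM. There were 2.26, 2.56 and 2.04 Ighm counts per Cd79b count in controls and 1.87, 1.79 and 1.48 in stress libraries. Every stress ratio was below every control ratio, so the difference in Ighm was the larger of the pair in these libraries.

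Cd79a, the partner without which CD79B does not form the receptor's signalling unit in B cells, had few counts. There were 9, 34 and 5 counts in controls and 8, 13 and 10 in stress libraries, or 0.117, 0.578 and 0.0881 CPM against 0.159, 0.241 and 0.18 CPM. Control replicate 2 alone held most of the control reads, and the groups overlapped. There were 25.6 to 190 Cd79b counts for each Cd79a count across the 6 libraries.

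Ighd, the IgD constant gene that lies next to Ighm and is spliced from the same long transcript in mature B cells, had 13, 11 and 5 counts in controls and 8, 6 and 3 in stress libraries. The groups overlapped, and their sums were 29 and 17 counts. Ighm had 117 to 387 counts per Ighd count. Per kilobase, too, Ighm stood far above Ighd in both groups (18.3 against 0.078 CPM per kb in controls, 9.41 against 0.0568 under stress).

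Ebf1 had 25, 28 and 11 counts in controls and 15, 39 and 27 in stress libraries. Its log2 difference was 0.60 (SE 0.42), with overlapping groups and a sign opposite to that of Ighm. The highest level, 0.724 CPM in stress replicate 2, was in the library that also had the highest sum over 11 stromal genes (274 CPM, against 151 to 187 CPM in the other 5 libraries). Ebf1 is also expressed in stromal cells, and the part of those cells in its level was not tested.

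Pax5 had 10, 35 and 11 counts in controls and 9, 34 and 12 in stress libraries. Replicate 2 was highest in each group, and the rest were alike. The log2 difference was 0.19 (SE 0.65), from 0.306 ± 0.252 to 0.342 ± 0.251 CPM, and its sign turned with the library left out (-0.61 to 1.09 over all alternatives). Genes on the opposite strand covered 8.596% of the exon bases of Pax5.

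Jchain, 7, 3 and 2 counts in controls and 0, 5 and 3 in stress libraries, was at or near the floor throughout. Ms4a1 had 0, 1 and 0 counts in controls and 1 in each stress library, below the floor in every library, so no fold is given.

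Of the 8 genes, 4 passed the count filter (Ighm, Cd79b, Ebf1 and Pax5). In 2 of them, Ighm and Cd79b, all stress libraries lay below all controls. Over the 16716 genes tested, 14.5% were placed that way and 30.6% did not overlap in either direction. The choice of the genes used this comparison, so nothing is read from that count.

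Per kilobase of exon the order of mean level over the 6 libraries was Ighm (13.9 CPM per kb), Cd79b (8.99), Cd79a (0.156), Ighd (0.0674), Ebf1 (0.0428), Pax5 (0.0366), Jchain (0.0215) and Ms4a1 (0.00198). Ighm stood above Cd79b in 6 of 6 libraries, and Cd79b above Cd79a in 6 of 6. The order from Cd79a down to Jchain held in 4 or 5 of 6 libraries for each neighbouring pair, and the ranges of each neighbouring pair overlapped. The ranges of Cd79a (lowest 0.0604 CPM per kb) and Jchain (highest 0.0369) did not. The drop between Cd79b, whose lowest library had 6.16 CPM per kb, and Cd79a, whose highest had 0.397, was thus the main break among the 8 genes. Fcer1a, the IgE-binding chain of the mast cell's Fc receptor, had 5.77 CPM per kb in controls and 27.7 under stress, where Ighm had 18.3 and 9.41. In controls Fcer1a was the lowest of the 11 mast cell genes listed. The others ran from 18.7 CPM per kb for Mitf to 16306 for Cpa3 in controls.

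Other rows of the immunoglobulin loci gave few reads. The 6 other heavy chain constant genes (Ighg1, Ighg2b, Ighg2c, Ighg3, Ighe and Igha) together had 2, 4 and 2 counts in controls and 0, 0 and 3 in stress libraries. The kappa constant gene Igkc had 0, 0 and 1 counts in controls and 2, 0 and 1 in stress libraries, and Iglc1 to Iglc4, the lambda constant genes, had 0 in every library. A count of 0 allows up to the floor of 0.0391 to 0.0595 CPM, for counting error only. Light chain constant RNA thus had 0 to 2 counts per library in all, beside 848 or more for Ighm.

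Heavy chain V rows, 183 in all, had reads in 27 rows. They summed to 43, 49 and 30 counts in controls and 21, 71 and 29 in stress libraries, or 0.641 ± 0.168 and 0.752 ± 0.493 CPM. The groups overlapped, and an exact two-sided permutation test of the sums gave p = 1, where 3 against 3 libraries cannot go below 0.1. For every 100 Ighm counts there were 1.76, 2.19 and 1.55 V counts in controls and 2.25, 8.37 and 2.74 in stress libraries. The V row with the most reads, Ighv1-23, had 24, 15 and 8 counts in controls and 3, 21 and 16 in stress libraries.

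The 4 J rows printed above summed to 7, 8 and 4 counts in controls and 11, 3 and 7 in stress libraries, and the 20 rows of D segments to 1, 2 and 1 against 0, 2 and 1. The groups overlapped for V, D and J rows alike. Among the J rows, Ighj2 had 3, 6 and 2 counts in controls and 2, 0 and 0 in stress libraries, and Ighj4 had 2, 1 and 0 against 3, 3 and 5. A limit applies to these rows: HTSeq commonly sets aside a read that overlaps more than one gene, and reads across a V to J or J to Ighm join may be missing from the counts, and its mode is not given in the sources used here. Of the 183 V genes in the annotation, 88 shared no 75-base stretch with another gene.

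**Figure D2:**
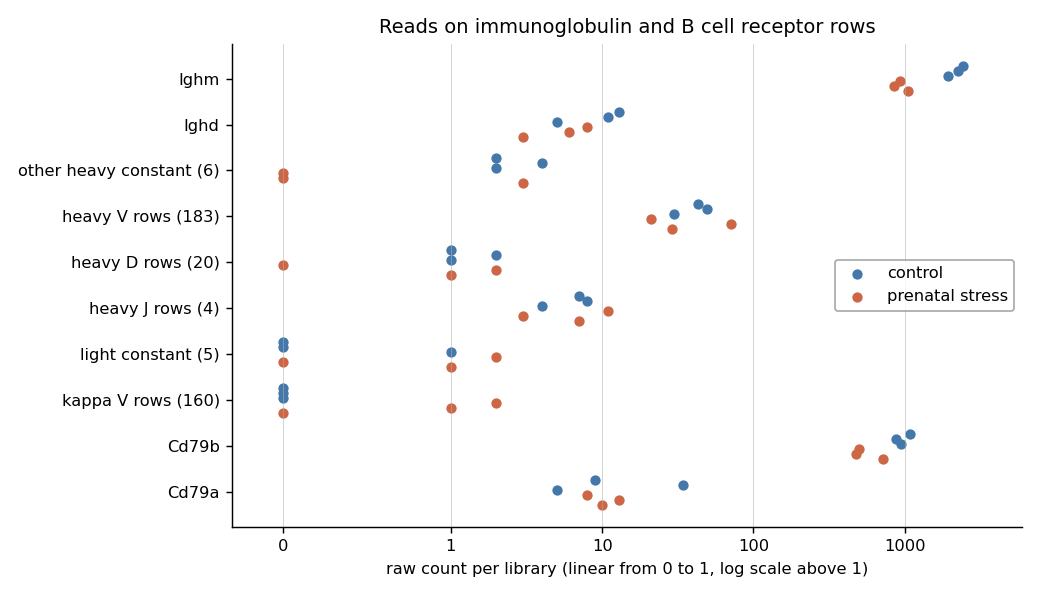
Raw counts per library (horizontal axis, linear from 0 to 1 and logarithmic above) on Ighm, Ighd, the summed rows of other immunoglobulin segments, Cd79b and Cd79a, with 1 point per library and the number of rows summed in parentheses. Ighm lies at 848 to 2438 counts, Cd79b at 475 to 1080, heavy chain V rows at 21 to 71, and light chain rows at 0 to 2.

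Outside the 8 genes, 43 further B lineage genes had a row, covering other constant genes, the surrogate light chain and recombination machinery, B cell surface and transcription factor genes, and plasma cell genes. Of these, 23 passed the filter, 3 rose and 0 fell by edgeR's quasi-likelihood test at an adjusted p under 0.05, and 20 did not pass. Over all genes tested 6.19% passed, 4.34% higher and 1.85% lower. At an unadjusted p under 0.05, 5 were lower and 3 higher. DESeq2 called 2 higher and 0 lower, where it called 1264 higher and 725 lower over all genes. The median log2 difference of the 23 was -0.32, against -0.004 over all genes tested, and 18 were below 0. The shares of all genes past the unadjusted p or below 0 were not counted, so nothing is read from those 2 counts. Of the 20 that did not pass the filter, 8 had no count in any library and none had more than 51 counts in a library.

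The 3 genes that rose have roles in early lymphoid cells. Il7r, the interleukin 7 receptor that early B and T cells and innate lymphoid cells need, had 26.2, 18.1 and 21.7 CPM in controls and 48.8, 58.1 and 55.5 CPM in stress libraries. All stress libraries were above all controls, a log2 difference of 1.30 (SE 0.13, edgeR adjusted p = 0.00196). Dntt, the terminal transferase that adds bases at V, D and J joins, had 4, 3 and 5 counts in controls and 20, 22 and 24 in stress libraries (log2 difference 2.68, SE 0.37, adjusted p = 0.00862). The counts of Dntt are low, but its groups did not overlap and it passed in 6 of 6 fits that left out 1 library, as Il7r did. Bach2, a repressor used in B cells and T cells, rose from 17.9 ± 1.35 to 23.7 ± 2.45 CPM (log2 difference 0.40, adjusted p = 0.0423). The call for Bach2 held in 1 of the 6 fits that left out a library, the one without stress replicate 3, and reached an adjusted p of 0.17 in the others.

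Bank1, Cd22 and Spib, other genes of the B lineage lists, had lower means under stress and did not pass. All 3 stress libraries were below all controls for Bank1 and Spib, but only stress replicates 1 and 2 for Cd22. Of the 23 B lineage genes tested, 2 had all stress libraries below all controls and 4 had them above. Over all genes tested these shares were 14.5% and 16.0%. Bank1, a scaffold of B cell receptor signalling, had 21.7, 26.1 and 23.2 CPM in controls and 18.6, 14.6 and 21.4 CPM in stress libraries (log2 difference -0.38, adjusted p = 0.123). Cd22, an inhibitory receptor of B cells, had 2.46, 2.62 and 2.32 CPM against 1.55, 1.21 and 2.61 CPM (log2 difference -0.46, adjusted p = 0.303). In both genes stress replicate 3 was the highest of the stress libraries, and for Cd22 the groups overlapped. Spib, a transcription factor of B cells and plasmacytoid dendritic cells, had 56, 36 and 31 counts against 23, 22 and 17 (log2 difference -0.70, adjusted p = 0.154).

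Stress replicate 3 decided several of these calls, as it did over all genes. There, calls went from 1035 to 2647 without it (725 to 1330 higher, 310 to 1317 lower). Without it, 7 B lineage genes passed in place of 3: the 3 that rose, and Cd22 (log2 difference -0.85, adjusted p = 0.0153), Bank1 (-0.52, 0.0162), Irf4 (-0.50, 0.00527) and Tnfrsf13b (-0.23, 0.0466) lower. Irf4 is a transcription factor of activated B cells and plasma cells, and Tnfrsf13b encodes TACI, a receptor for B cell survival factors. In that library the 14 macrophage genes summed to 7841 CPM, above every control (6799 to 7711 CPM), while replicates 1 and 2 had 5582 and 5207 CPM, below every control. Mrc1 was a large part of that sum, with 2729 CPM against 2159 to 2387 CPM in controls. Cd68, Cd163 and Cd14 were also above every control in stress replicate 3. Cx3cr1 was below every control there (310 against 395 to 457 CPM), and the rest of the 14 lay within the controls. Macrophage calls moved with its omission as well: without stress replicate 3, 9 of the 14 fell and 1 rose, where 1 fell and 1 rose with all libraries. Csf1r, the receptor macrophages need to survive, went from a log2 difference of -0.49 (adjusted p = 0.122) to -0.74 (0.0016), and Mrc1, the mannose receptor, from -0.24 (0.508) to -0.57 (0.00443). The part of macrophage RNA in these differences was not tested.

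Genes of B cell precursors were read next. Vpreb1 and Igll1 encode the surrogate light chain that pairs with the IgM heavy chain in precursors. Vpreb1 had 23, 17 and 15 counts against 10, 18 and 5 (adjusted p = 0.56), and Igll1 14, 30 and 9 against 6, 25 and 5 (adjusted p = 0.816). Rag1, which cuts the locus for recombination, had 317, 98 and 29 counts in controls and 10, 57 and 24 in stress libraries (log2 difference -1.91, adjusted p = 0.153), with control replicate 1 far above the rest.

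Of the 7 plasma cell genes, 0 passed in either direction (edgeR; 1 was lower and 0 were higher at an unadjusted p under 0.05; DESeq2 also called 0). Xbp1, the transcription factor of the secretory program, had a log2 difference of 0.08 (adjusted p = 0.514) and Prdm1, which drives plasma cell fate, -0.14. Mzb1, a chaperone of IgM assembly, shared 51.45% of its 75-base stretches with another gene, so its count is uncertain.

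**Figure D3:**
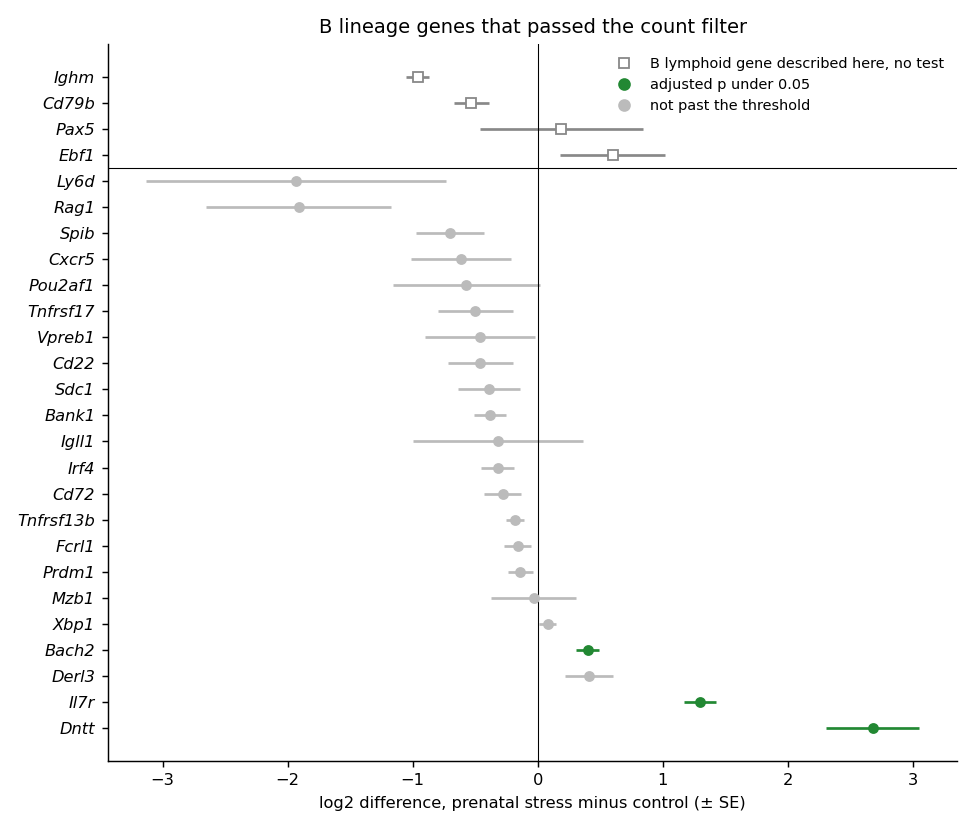
Log2 difference of prenatal stress minus control (horizontal axis, ± SE, n = 3 libraries per group) for the 4 B lymphoid genes described here without a test (open squares) and other B lineage genes that passed the filter (circles, green past an adjusted p of 0.05; 1 tested gene is not drawn). Among the circles drawn, only Bach2, Il7r and Dntt are green, all to the right of 0, while most of the rest lie to the left.

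Pax5, Cd79a, Igll1, Pou2af1 (a coactivator of immunoglobulin genes) and the summed V rows shared a pattern that Ighm and Cd79b did not show: replicate 2 was highest in each group. Pou2af1, for example, had 19, 32 and 9 counts in controls and 4, 19 and 11 in stress libraries. For Ighm, replicate 2 was highest among controls and lowest among stress libraries. Some other sparse B lineage rows also lacked the pattern, while Vpreb3 had it. Jchain, Vpreb1, Spib, Blk and Ly6d were highest among controls in replicate 1. Ighd and Cxcr5 were highest among stress libraries in replicate 1. The rows said to share the pattern were chosen after their values were seen, so they do not stand for the sparse B lineage rows as a set. Ebf1 and the stromal genes Ebf2, Dcn and Lum also had replicate 2 highest in each group. The share of all genes with that pattern was not counted.

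**Figure D4:**
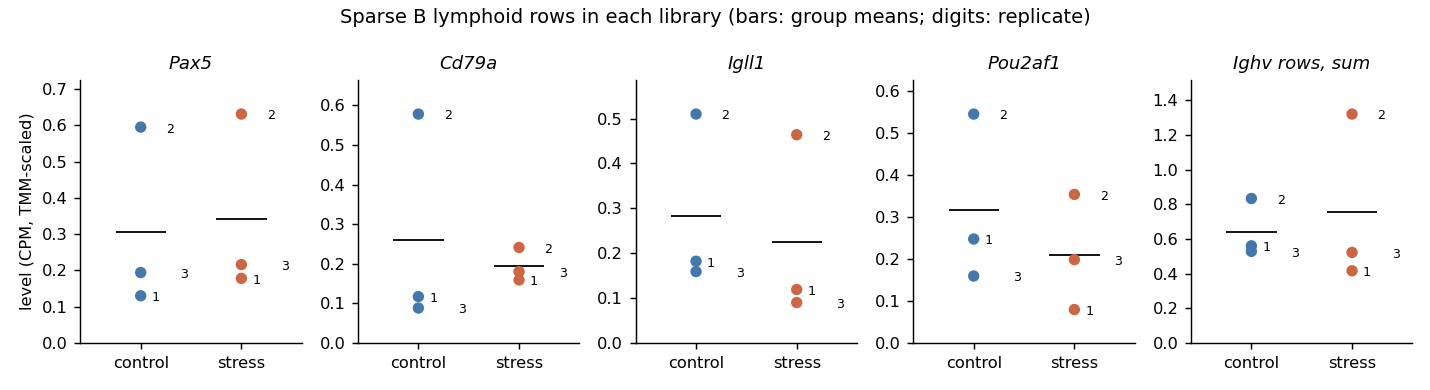
Level in CPM (vertical axis, own scale per panel, starting at 0) of 4 sparse B lymphoid genes and of the summed heavy chain V rows, 1 point per library with its replicate number and a bar at each group mean. Replicate 2 is the top point of both groups in all 5 panels.

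Kinases and adaptors that B cells use below the receptor, most of which mast cells use below the IgE receptor, were measured well. Of 20 such genes, all tested, 4 rose, 1 fell and 15 did not pass, with a median log2 difference of 0.16. The shares over all genes tested were 4.34% higher and 1.85% lower. Those that rose were Dapp1, an adaptor (log2 difference 0.35, adjusted p = 0.0216), Malt1, a protease of the NF-kappaB branch (0.55, adjusted p = 0.0236), Lat2, an adaptor (0.40, adjusted p = 0.0367), and Blnk, an adaptor of the B cell receptor, named after its values were seen (0.62, adjusted p = 0.0459). Pik3cd, a lipid kinase subunit, fell (-0.31, adjusted p = 0.028). Syk and Lyn, the kinases next to the receptor, had log2 differences of 0.23 (adjusted p = 0.0642) and 0.01 (adjusted p = 0.917). The count of calls was 0 to 12 when 1 library was left out: 12 without stress replicate 3, 1 without control replicate 1 (Malt1), 1 without stress replicate 1 (Pik3cd) and 0 without each of the other 3. Calls over all genes were 196 to 2647 in those fits. Scaling by library totals alone gave 3 higher and 5 lower in place of 4 and 1. For Lat2, an opposite-strand gene covers 36.32% of the exon bases.

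Genes that flank the heavy chain locus were read beside Ighm. Of 6 that passed the filter (Crip1, Crip2, Mta1, Pacs2, Brf1 and Zfp386), 0 passed the edgeR test in either direction. Only Crip1 had an unadjusted p under 0.05 (log2 difference 0.30, adjusted p = 0.0599). DESeq2 called 1 of the 6, higher, and Crip1 passed, higher, without stress replicate 3. The median of the 6 was -0.02.

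The protein-coding genes whose level followed that of Ighm most closely over the 6 libraries were ranked by the root mean square difference of centred log2 CPM, among 11255 genes with a mean of at least 1 CPM. The nearest 8 were Fam71a (0.127), Gdpd5 (0.128), Myh10 (0.131), Rpl39l (0.131), Tmem176b (0.134), Fap (0.136), Fmnl3 (0.14) and Nlrp1b (0.145). Tmem176b, a membrane protein gene, had 44.6, 53.4 and 48.6 CPM in controls and 28.9, 25.6 and 34.4 CPM in stress libraries. No gene of the B lineage lists was among the 8. Few genes of those lists were among the 11255 ranked, so nothing is read from that absence. Cd79b ranked 123 (0.253), Bank1 318, Irf4 674 and Cd22 687. Profiles were centred over all 6 libraries, so the difference between the groups, known when Ighm was chosen, enters the ranking. The 8 nearest genes had log2 differences of -0.97 (Rpl39l) to -0.68 (Nlrp1b). The ranking is a description of these 6 libraries.

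**Figure D5:**
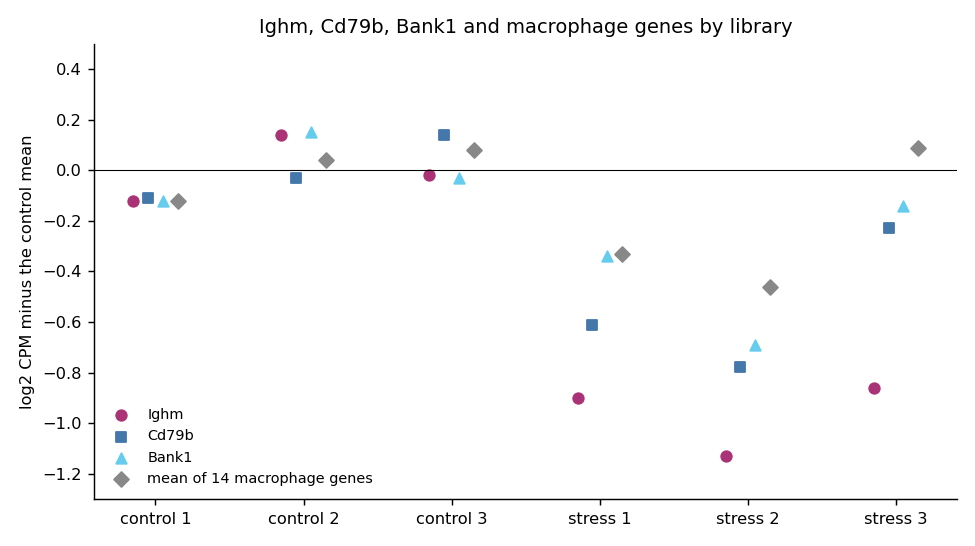
Log2 CPM minus the control mean (vertical axis) for Ighm, Cd79b, Bank1 and the mean of 14 macrophage genes in each library (horizontal axis). Ighm lies at -0.90, -1.13 and -0.86 in stress replicates 1, 2 and 3, whereas in replicate 3 Cd79b is at -0.23, Bank1 at -0.14 and the macrophage mean at 0.09.

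The plot by library sets Ighm beside genes that varied with stress replicate 3. Ighm was 0.86 to 1.13 log2 units below the control mean in each stress library. Cd79b was at -0.61, -0.78 and -0.23, and the macrophage mean at -0.33, -0.46 and 0.09. That mean does not stand for each macrophage gene. Cx3cr1, the 1 gene of the 14 with all stress libraries below all controls, had 302, 274 and 310 CPM against 395 to 457 CPM. The part of macrophage RNA in the values of Ighm and Cd79b was not tested.

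Markers of other cells that the sort could hold were read beside Ighm. Their counts of calls stand beside shares of 4.34% higher and 1.85% lower over all genes tested. Of 14 macrophage genes, 1 fell (Cx3cr1, log2 difference -0.54, adjusted p = 0.00912), 1 rose (Cd68, 0.37, adjusted p = 0.0449) and 12 did not pass, with a median of -0.26. Of 7 dendritic cell genes tested, 1 fell, Siglech, a marker of plasmacytoid dendritic cells (4.36, 5.61 and 3.96 CPM in controls and 2.28, 2.13 and 3.35 CPM in stress libraries, adjusted p = 0.0469). The call for Siglech held only without stress replicate 3 among the 6 fits with 1 library left out (adjusted p 0.00446 to 0.185). The dendritic sum was 18.4 to 22.8 CPM in controls and 14.8 to 16.7 CPM in stress libraries. The call for Cd68 held without stress replicate 2 or 3 and was lost without each of the other 4 libraries (up to 0.141), and that for Cx3cr1 held in all 6. Of 9 T and innate lymphoid genes tested, 3 fell and 0 rose, and of 11 mast cell genes 6 rose and 0 fell. Without stress replicate 3, 2 dendritic cell genes fell (Siglech and Zbtb46), 4 T and innate lymphoid genes fell and 10 mast cell genes rose. In that fit 1330 genes in all were higher and 1317 lower. The part of each of these cell types in the difference of Ighm was not tested.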

How the data were processed

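Per the labels' protocols, poly-A RNA of sorted cells was made into stranded paired-end libraries. The authors deposited 1 table of raw counts per gene symbol for each library, not normalized. The submitters' processing notes list STAR 2.4, HTSeq 0.9.1 and FastQC, with the builds GRCm39 and mm10 and no role for either. Strand setting and counting mode: not given in the sources used here. The 5 rows that name no gene were left out of library sizes; per library they held 7.83% to 9.78% of tallied reads as outside features, 8.49% to 9% as not uniquely aligned and 1.77% to 1.85% as ambiguous.

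Genes passed filterByExpr (minimum count 10), and edgeR 4.0.16 (R 4.3.3) gave TMM factors, CPM and the quasi-likelihood test of stress against control, without covariates, with Benjamini-Hochberg adjustment at 0.05 over 16716 genes. Log2 CPM used a prior count of 2. Exon lengths, shared 75-base stretches, exon overlaps and coordinates came from GENCODE M21. The test was tried on simulated counts. Alternatives were other scaling, no filter and a stricter one (at least 10 counts in 3 libraries and a mean of 1 CPM), DESeq2 1.42.0, the replicate number as a block and each library left out.

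The genes and lists were chosen with earlier results of these data known. Named were the 8 B lymphoid genes, up to 4 called genes per list, tested B lineage and flanking genes, the most abundant genes of other cell lists, and the 8 nearest to Ighm; not all are printed, and 1 gene of the B lineage lists is not reported here.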

Additional observations from a re-analysis of the deposited data

How the results depend on the processing

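The log2 difference of Ighm was -1.08 to -0.89 over 13 alternatives, and -1.02 to -0.89 when 1 library was left out; Cd79b had -0.70 to -0.42 and Ebf1 0.24 to 0.93, while Pax5 was below 0 in 3 of 12. The number of genes called, 1035 in all (725 higher, 310 lower), was 2085 with library totals (553 higher, 1532 lower, with the median of all genes at -0.119), 1933 without a filter, 1989 with DESeq2 and 196 to 2647 when 1 library was left out, lowest without stress replicate 2 and highest without stress replicate 3. The B lineage count of 3 (3 higher, 0 lower) was 6 without a filter, where Rag1, Rag2 and Bank1 were added as lower, and 2 to 7 with 1 library left out; with library totals it was 2 higher and 1 lower (Tnfrsf13b). The signalling count of 5 was 8 with library totals, 8 without a filter, 11 with DESeq2 and 0 to 12 with 1 library left out. The cause of these shifts was not tested. With the replicate number as a block, 622 genes, 2 B lineage genes and 2 signalling genes were called; same-numbered libraries correlated at 0.095, -0.019 and 0.068 in their deviations from the group means, so the numbers were not taken to pair the libraries. Dntt was not tested under the stricter filter and had no adjusted p in DESeq2. Counts at or under 3 per library, as for Ms4a1 and the light chains, limit what can be said of those rows.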

Other observations

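Rag1 and Rag2, which open the antigen receptor loci, were highest in the same library as several T cell genes and several B lineage genes. Control replicate 1 had 317 Rag1 and 51 Rag2 counts, the most of any library, and also the most for Trbc1 (686 counts), Trbc2 (800) and Lck (687). Blk (0.234 CPM), Ly6d (0.56 CPM), Spib (0.729 CPM) and Cd72 (4.14 CPM), genes of the B lineage lists, were highest there too, while Ighm was lowest among the controls there, at 31.8 CPM. Cd3e, Cd3d, Cd3g, Cd247, Trdc, Cd2 and Thy1 were also highest in that library. Trac, however, was highest in control replicate 2 (0.595 CPM), Cd4 in control replicate 3 (17.5 CPM) and Nkg7 in stress replicate 2 (27.4 CPM). Trac had a log2 difference of -0.25 (edgeR adjusted p = 0.663). Trbc1 and Trbc2 shared 34.62% and 37.7% of their 75-base stretches with another gene, so their counts are uncertain. Other B lymphoid genes were highest in libraries other than control replicate 1. Cd79a, Igll1, Pou2af1, Cxcr5, Cd22 and Bank1 were highest in control replicate 2, and Pax5 and Ebf1 in stress replicate 2. In control replicates 2 and 3 Trbc1 had 215 and 57 counts, and in stress replicates 1, 2 and 3 it had 13, 26 and 12. Trbc1 had a log2 difference of -3.83 (edgeR adjusted p = 0.0259), Trbc2 -4.11 (0.0298) and Lck -3.88 (0.0387), and each held without control replicate 3 or stress replicate 3. Without control replicate 1 the values were -2.86 (0.043), -2.86 (0.0415) and -2.66 (0.0696), and without each of the other 3 libraries none of the 3 genes passed (adjusted p 0.0846 to 0.132).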
